A study of Rattus norvegicus with 8 samples.

Results

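The serotonin receptors of the hippocampus were examined in adrenalectomized (ADX) rats given corticosterone (CORT). The genes were chosen by name, as the 10 receptor genes Htr1a, Htr1b, Htr1d, Htr2a, Htr2c, Htr4, Htr5a, Htr5b, Htr6 and Htr7, and every transcript row under these symbols was taken. Of the 10 genes, 8 have a row among the 16266 transcripts of the deposited table, each with a single transcript. Htr1d and Htr7 have no row, neither under these symbols nor under the synonyms that RefSeq lists for them, and were not analysed here.

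The vehicle group was 4 ADX rats infused with 0.45% saline, and the CORT group was 4 ADX rats infused with corticosterone-2-hydroxypropyl-β-cyclodextrin at 0.75 mg/mL. Both infusions lasted 30 min and were begun at ZT 2 (zeitgeber time, hours after lights on), and whole hippocampi were taken 2 h after the start. All 8 rats thus lacked adrenal glands, and the study's methods add that their drinking corticosterone was withdrawn before the infusion. The labels give the strain as Sprague-Dawley and the age as 3 to 4 months, whereas the study's methods name male Lister Hooded rats of a younger age. The table holds 1 FPKM value (fragment counts scaled by the length of the transcript and the size of the library) for each group and transcript. These are the authors' group values, so no spread between rats, read depth or test stands behind any difference given here, and each is a description of the pair of group values. A transcript was counted as past 1.5-fold when its CORT value was at least 1.5 times its vehicle value, or the reverse.

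Serotonin (5-HT) reaches the hippocampus in axons from the raphe nuclei of the brainstem, and its effect on a cell depends on which receptors that cell carries. The 5-HT1 and 5-HT5A receptors couple to Gi/o proteins and mostly inhibit. The 5-HT2 receptors couple to Gq/11 and raise intracellular calcium, and the 5-HT4, 5-HT6 and 5-HT7 receptors couple to Gs and raise cAMP. Corticosteroids act through the glucocorticoid receptor (Nr3c1) and the mineralocorticoid receptor (Nr3c2), both of which are abundant in hippocampal neurons, and Htr1a is a classical example of a serotonin receptor gene whose hippocampal mRNA depends on adrenal steroids. The comparison asks which receptor mRNAs differ between ADX hippocampi with and without an acute corticosterone pulse.

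Known glucocorticoid targets were read as a check of the treatment. The study itself names several of them from these samples, so their direction is not independent evidence. Of 8 transcripts of Per1, Fkbp5, Sgk1, Tsc22d3, Klf9 and Zbtb16, 7 were at least 1.5-fold higher in the CORT group and none was at least 1.5-fold lower. Over all transcripts these shares were 4.21% and 4.91%. The markers of hippocampal neurons were present in both groups, with the CA1 marker Wfs1 at 106 FPKM with vehicle and at 114 FPKM with CORT, the CA3 marker Grik4 at 29.0 and 29.8 FPKM, and the dentate marker Prox1 at 10.9 and 8.96 FPKM.

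Among the receptors, Htr2a was the only one of the 8 past 1.5-fold, with a higher value in the CORT group. None was at least 1.5-fold lower. Of all transcripts listed, 9.12% were past 1.5-fold in either direction, 4.21% higher and 4.91% lower, so that 1 of 8 receptors is near the background. The median log2 ratio of CORT over vehicle was 0.14 over the 8 receptors and 0.02 over all transcripts. The receptors ranged from -0.23 for Htr4 to 0.66 for Htr2a. Of the 8 receptors 5 were higher and 3 lower in the CORT group, which is 62.5% higher, against 55.0% higher over all transcripts.

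**Figure D1:**
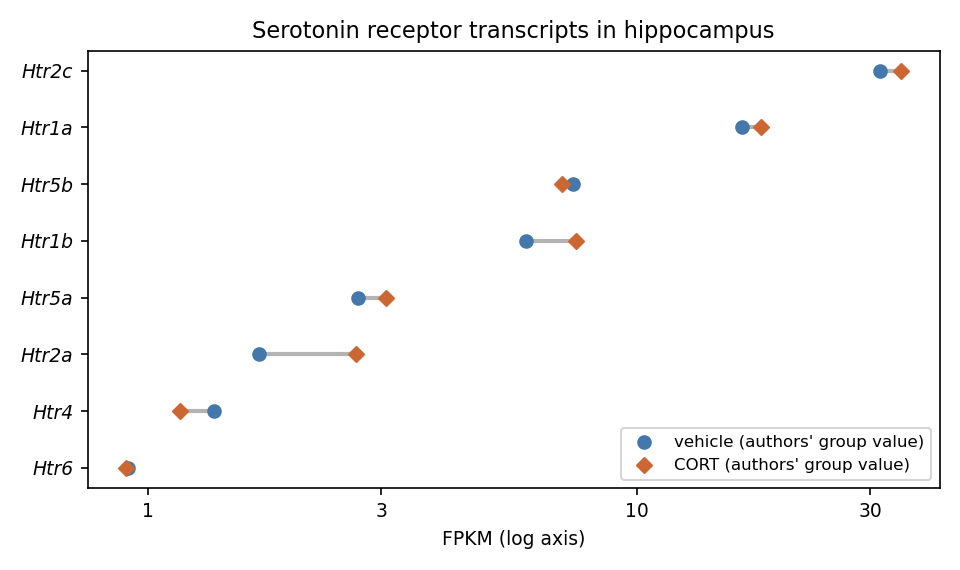
FPKM of the 8 serotonin receptor transcripts (log axis), with the authors' vehicle value as a circle and the CORT value as a diamond for each gene. Htr2c and Htr1a lie above the others in both groups, and the longest line on this log axis is that of Htr2a, from 1.69 to 2.67 FPKM.

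The levels of the receptors spanned a wide range. In the vehicle group Htr2c was highest, followed by Htr1a, Htr5b, Htr1b, Htr5a, Htr2a, Htr4 and Htr6. In the CORT group the order differed only in that Htr1b was above Htr5b. FPKM is scaled for transcript length, so levels can be set side by side between genes as far as their transcript models are equally complete, which was not tested. On this scale Htr2c was 34.5 times as high as Htr6 with vehicle and 38.4 times with CORT. Without values for single rats, no neighbouring pair in this order can be said to differ beyond the spread between rats.

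Htr2c encodes the 5-HT2C receptor, which is found on neurons and is dense in the epithelium of the choroid plexus. Its transcript, at chrX:118084889-118318039 of rn6 as the table writes the locus, was at 31.5 FPKM with vehicle and at 34.7 FPKM with CORT. This was a log2 ratio of 0.14, close to the median of the receptors. Htr2c alone held 46.4% of the summed FPKM of the 8 receptors with vehicle and 46.3% with CORT, and 81.1% of all transcripts had a lower mean FPKM.

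Choroid plexus mRNAs were present in the values of both groups, which cannot show how they were spread over the 4 rats of each. Ttr, which encodes transthyretin and is among the most abundant choroid plexus mRNAs, was at 6605 FPKM with vehicle and at 6598 FPKM with CORT. Of 18 choroid plexus markers 17 have a row, with a summed level of 7210 FPKM with vehicle and 7160 FPKM with CORT, most of it Ttr. Of their 22 transcripts 8 were higher and 14 lower in the CORT group, with a median log2 ratio of -0.03. None was at least 1.5-fold lower, and 2 were at least 1.5-fold higher, against 4.21% of all transcripts. These 2 were low transcripts of F5 (0.983 and 2.10 FPKM) and Prlr (0.297 and 1.17 FPKM). With its transcripts together, F5 was at 10.6 and 11.9 FPKM, which is not past 1.5-fold. Prlr was at 1.40 and 2.26 FPKM, which is. Otx2 has no row. How much of the Htr2c signal came from choroid plexus was not tested.

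Htr2a encodes the 5-HT2A receptor, the other member of the Gq/11-coupled pair and the main target of classical psychedelics. Its transcript, at chr15:56666011-56735382, was at 1.69 FPKM with vehicle and at 2.67 FPKM with CORT, a ratio of 1.58 and a log2 ratio of 0.66. Of all transcripts 3.58% had a ratio at least as high. Htr2a is a low transcript, with 17.5% of all transcripts below its mean FPKM, and large ratios were more common at this level: of the 2999 transcripts with a mean of 1 to 3 FPKM, a range chosen after the value of Htr2a was seen, 8.67% had a CORT value at least 1.5 times the vehicle value. Adding a pseudocount of 1 FPKM to both values gave a log2 ratio of 0.45 for Htr2a, which is not past 1.5-fold.

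**Figure D2:**
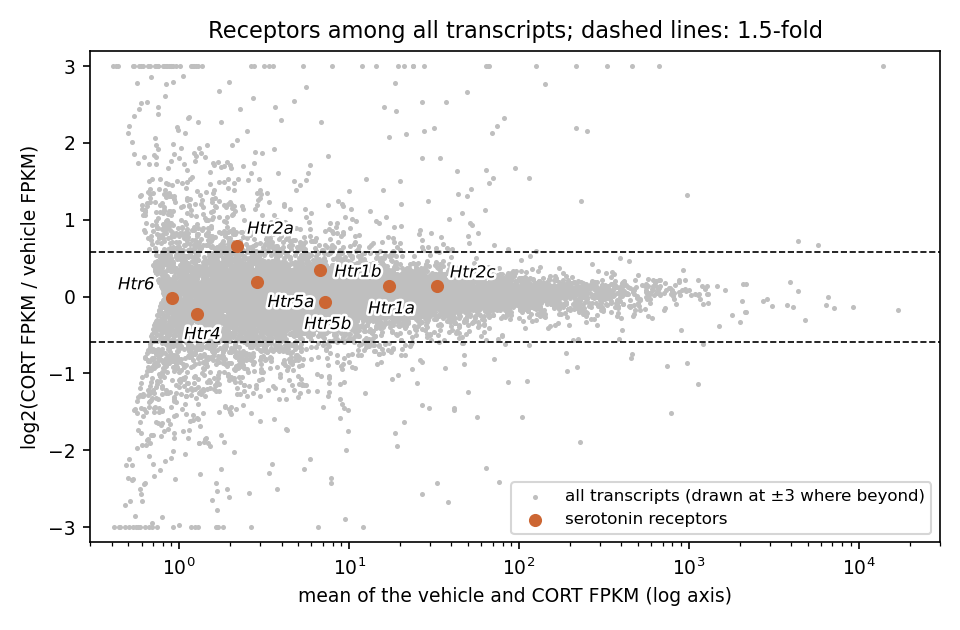
Log2 ratio of the CORT over the vehicle FPKM (vertical axis) against the mean of both values in FPKM (log axis) for the 16266 transcripts in grey and the 8 receptors in orange, with dashed lines at 1.5-fold. Htr2a, at a log2 ratio of 0.66, is the only receptor beyond a dashed line, and the grey cloud widens towards low FPKM.

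Interneurons are among the hippocampal cells that carry 5-HT2A and 5-HT3 receptors, and their markers were read beside Htr2a. Of 13 interneuron markers 12 have a row, and 11 of their 14 transcripts were higher and 3 lower with CORT, with a median log2 ratio of 0.30, whereas 55.0% of all transcripts were higher. Their summed level was 629 FPKM with vehicle and 756 FPKM with CORT. Only Lhx6 was past 1.5-fold, from 1.05 to 1.84 FPKM, and 1 of 14 transcripts is no larger a share than the 9.12% of all transcripts. Npy, another marker of interneurons, has no row. In a whole hippocampus, more cells of a type and more RNA per cell cannot be told apart, and the part of interneuron RNA in the value of Htr2a was not tested.

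The Gi/o-coupled receptors were led by Htr1a, which encodes the 5-HT1A receptor, an inhibitory receptor of pyramidal and granule cells that opens inwardly rectifying potassium channels. Its transcript, at chr2:36246627-36247896, was at 16.4 FPKM with vehicle and at 18.0 FPKM with CORT, a log2 ratio of 0.13. Htr1a thus differed by less than 1.5-fold between ADX hippocampi with and without corticosterone at this time point. The locus spans 1269 bases in the table, and the length of the transcript model used sets its level in FPKM but not its ratio between groups. Nr3c2, one of the steroid receptors through which Htr1a has been linked to corticosterone, was at 24.1 FPKM with vehicle and at 30.2 FPKM with CORT. The 2 transcripts of Nr3c1 together were at 32.2 and 26.5 FPKM.

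Htr1b encodes the 5-HT1B receptor, which sits on axon terminals and limits transmitter release. Its transcript, at chr8:89129452-89130991, was at 5.93 FPKM with vehicle and at 7.51 FPKM with CORT. The log2 ratio of 0.34 was the second highest among the receptors. With the threshold lowered to a difference of 25%, Htr1b and Htr2a were past it, as were 20.3% of all transcripts. Since the mRNA of a terminal receptor is made in the cell body, the Htr1b measured here is that of cells in the dissected tissue.

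The pair of 5-HT5 receptors differed in level. Htr5b, a gene that is intact in rodents but disrupted in humans, was at 7.39 FPKM with vehicle and at 7.05 FPKM with CORT from chr13:37479757-37492680, a log2 ratio of -0.07. Htr5a, its paralogue, was at 2.69 FPKM with vehicle and at 3.06 FPKM with CORT from chr4:199915-209599, a log2 ratio of 0.19. Htr5b was thus 2.75 times as high as Htr5a with vehicle and 2.30 times with CORT. The authors' correction for multi-mapping reads divides any reads shared by the 2 paralogues between them by estimate.

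Htr5b is also expressed in the habenula, which lies close to the hippocampus, and most markers of the habenula and thalamus were lower in the CORT group. Of 16 such markers 12 have a row, with a summed level of 75.6 FPKM with vehicle and 55.8 FPKM with CORT. Of their 15 transcripts 8 were at least 1.5-fold lower and 2 at least 1.5-fold higher, against 4.91% and 4.21% of all transcripts. The 2 were transcripts of Prkcd and Ptpn3, whose transcripts together were at 10.9 and 6.13 FPKM and at 15.5 and 15.2 FPKM. The lowest ratios were those of Gpr151, an orphan receptor of habenular neurons, and of the nicotinic receptor subunit Chrna3. Gpr151 was at 3.24 FPKM with vehicle and at 0.573 FPKM with CORT, and Chrna3 was at 3.40 and 0.557 FPKM. Other markers differed little, such as Nwd2 at 8.99 and 8.83 FPKM and Rgs16 at 6.76 and 6.86 FPKM. Chrnb3, Pou4f1, Tac2 and Irx2 have no row. The CORT value of Htr5b was 0.953 times its vehicle value, and the part of habenular RNA in its level was not tested.

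The Gs-coupled receptors were the lowest in level. Htr4, which encodes the 5-HT4 receptor, was at 1.37 FPKM with vehicle and at 1.17 FPKM with CORT from chr18:57654289-57819698. Its log2 ratio of -0.23 was the lowest of the receptors. Htr6, which encodes the 5-HT6 receptor, was at 0.913 FPKM with vehicle and at 0.904 FPKM with CORT from chr5:157503039-157518631, a log2 ratio of -0.014. Only 3.72% of all transcripts had a lower mean FPKM than Htr6, and the lowest mean in the table was 0.406 FPKM. None of the 8 receptor loci overlapped another row of the table.

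Added up by G protein class, with Htr5b placed in the Gi/o class, the Gi/o and Gq/11 receptors were at similar levels. Those of the Gs class were far below. The 4 receptors placed in the Gi/o class summed to 32.4 FPKM with vehicle and to 35.6 FPKM with CORT, a log2 ratio of 0.14. Htr5b, whose coupling is less well established, held 7.39 FPKM of this sum with vehicle and 7.05 FPKM with CORT. The 2 Gq/11-coupled receptors summed to 33.2 and 37.4 FPKM, a log2 ratio of 0.17, with Htr2c higher by 3.23 FPKM and Htr2a by 0.975 FPKM. Htr2c held 31.5 FPKM of this sum with vehicle and 34.7 FPKM with CORT, and its choroid plexus part was not tested. Sums of different genes also rest on transcript models whose completeness was not tested. The 2 Gs-coupled receptors summed to 2.28 and 2.07 FPKM, a log2 ratio of -0.14, which leaves out Htr7. Of the summed FPKM of the 8 receptors, the Gi/o class held 47.7% with vehicle and 47.4% with CORT, the Gq/11 class 48.9% and 49.8%, and the Gs class 3.36% and 2.76%.

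**Figure D3:**
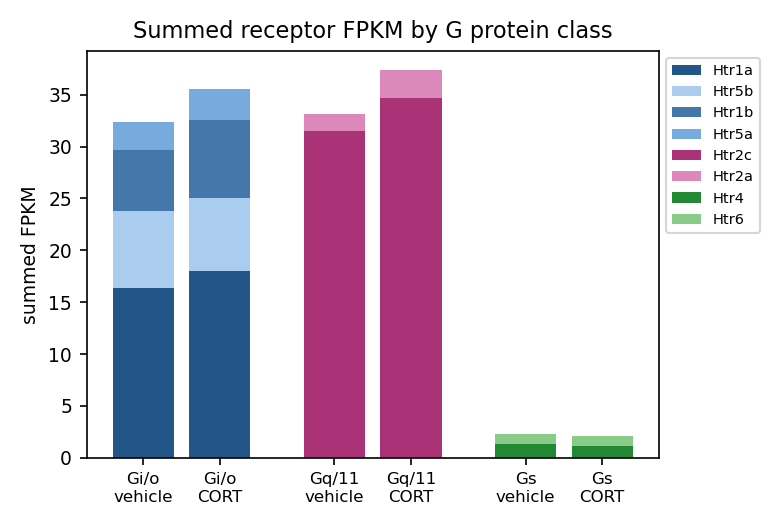
Summed FPKM of the receptors by the G protein class they were placed in, in the vehicle and the CORT group, with 1 colour for each gene. The Gi/o bars reach 32.4 and 35.6 FPKM, the Gq/11 bars, made up largely of Htr2c, 33.2 and 37.4 FPKM, and the Gs bars 2.28 and 2.07 FPKM.

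A further 4 serotonin receptor genes lie outside the 10 examined, and 2 of them have a row. Htr1f, which encodes the Gi/o-coupled 5-HT1F receptor, was at 0.676 FPKM with vehicle and at 1.17 FPKM with CORT, a log2 ratio of 0.79 that was past 1.5-fold but rests on levels near the lowest in the table. Htr3a, the subunit of the 5-HT3 ion channel that hippocampal interneurons express, was at 2.07 FPKM with vehicle and at 2.46 FPKM with CORT, a log2 ratio of 0.25. Htr2b and Htr3b have no row.

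The wider serotonin pathway was described by 6 lists of other genes (other receptors, serotonin synthesis, transport and breakdown, G protein alpha subunits, effectors, receptor regulators and regulators of Htr1a transcription). Of their 56 genes 49 have a row, and 7 of their 65 transcripts were past 1.5-fold, 3 higher and 4 lower with CORT. That is 10.8% of the transcripts, near the 9.12% of all transcripts. The median log2 ratio over the 65 transcripts was 0.11.

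The signalling proteins downstream of the receptors were G protein alpha subunits and effectors. None of the 11 transcripts of G protein alpha subunits was past 1.5-fold, against 9.12% of all transcripts. Of the 11, 9 were higher and 2 lower with CORT, with a median log2 ratio of 0.15, whereas 55.0% of all transcripts were higher. Gnas, which encodes the alpha subunit that the Gs-coupled receptors use, was highest, with its 2 transcripts together at 403 FPKM with vehicle and at 464 FPKM with CORT. Among 28 transcripts of effectors, 1 was at least 1.5-fold higher and 2 were at least 1.5-fold lower, near the 9.12% of all transcripts past 1.5-fold. These were transcripts of 2 genes with several rows. A transcript of Adcy6, an adenylyl cyclase, was at 2.19 FPKM with vehicle and at 0.590 FPKM with CORT, while the transcripts of Adcy6 together were at 11.4 and 12.2 FPKM. Of the 5 transcripts of Itpr1, the calcium channel opened by the Gq/11 pathway, 1 was at 1.32 FPKM with vehicle and at 4.81 FPKM with CORT, another at 10.2 and 6.75 FPKM, and together they were at 44.4 and 51.5 FPKM.

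Among 10 transcripts of receptor regulators only 1 of Adrbk2, a kinase that phosphorylates activated receptors, was past 1.5-fold. It was at 1.47 FPKM with vehicle and at 2.25 FPKM with CORT, while the transcripts of Adrbk2 together were at 8.73 and 10.4 FPKM. S100a10, also known as p11, which brings 5-HT1B and 5-HT4 receptors to the cell surface, was at 57.0 FPKM with vehicle and at 40.7 FPKM with CORT, a log2 ratio of -0.49, and was named after its value was seen. Among 8 transcripts of regulators of Htr1a transcription, only that of Hes5, a Notch-regulated repressor, was past 1.5-fold, at 19.7 FPKM with vehicle and at 12.8 FPKM with CORT. Since 9.12% of all transcripts were past 1.5-fold, 1 of 10 receptor regulators and 1 of 8 of these are near the background.

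**Figure D4:**
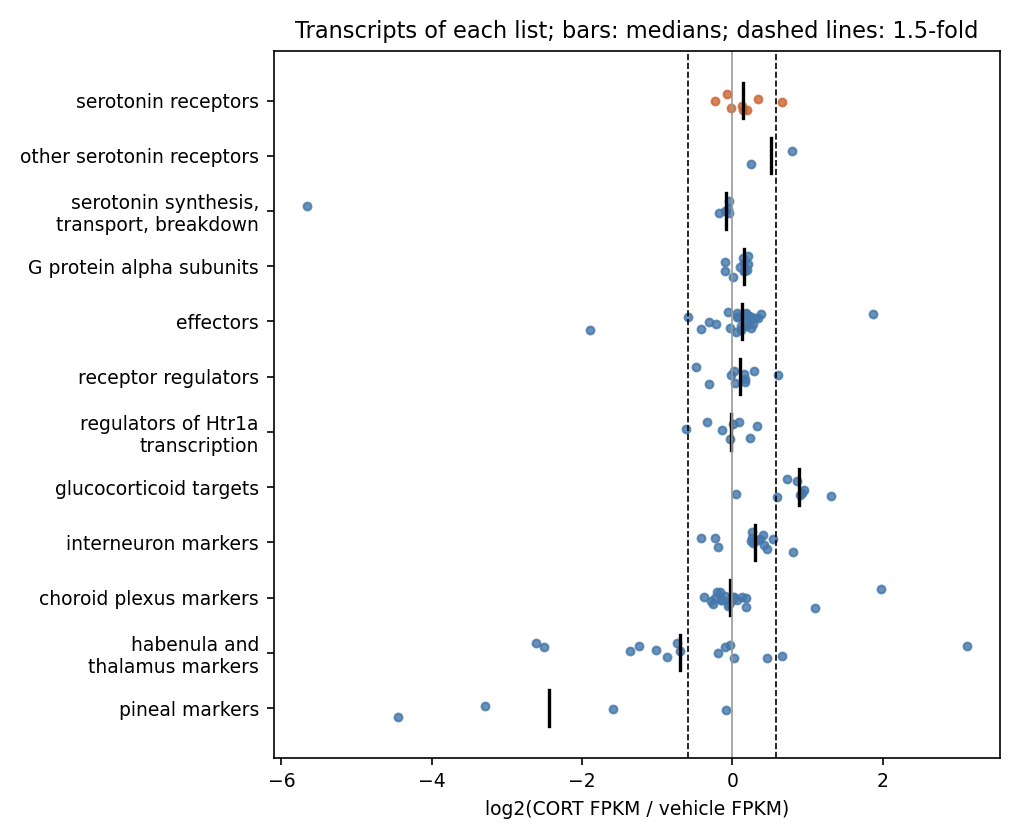
Log2 ratio of the CORT over the vehicle FPKM for each transcript (points) of the serotonin receptors, the lists of related genes and 4 marker lists, with the median of each list as a bar and dashed lines at 1.5-fold. The receptors have a median of 0.14, the glucocorticoid targets one of 0.88, and the point far to the left among the genes of serotonin synthesis is Tph1.

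Genes of serotonin synthesis, transport and breakdown differed little apart from Tph1. Of 10 such genes 6 have a row, and all 6 transcripts were lower with CORT, by less than 1.5-fold for 5 of them. Of all transcripts 55.0% were higher. Tph2, the tryptophan hydroxylase of serotonin neurons, was at 1.04 FPKM with vehicle and at 1.01 FPKM with CORT. The defining serotonin neuron genes Slc6a4 and Fev have no row, and of 7 markers of serotonin neurons the 3 with a row summed to 6.12 FPKM with vehicle and 5.38 FPKM with CORT. Tph1, the tryptophan hydroxylase of the pineal gland and peripheral tissues, was at 5.17 FPKM with vehicle and at 0.102 FPKM with CORT, a log2 ratio of -5.66. The 4 pineal markers with a row, of 9 listed, were all lower with CORT. Of these, 3 were lower by at least 1.5-fold, against 4.91% of all transcripts. The 4 summed to 19.2 FPKM with vehicle and 9.19 FPKM with CORT. Most of the CORT sum was Rom1, which differed little, at 7.33 FPKM with vehicle and at 6.92 FPKM with CORT. Aanat, Asmt, Crx, Pde6b and Sag have no row, and the part of pineal RNA in the value of Tph1 was not tested.

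Markers of the hippocampal subfields, which differ in their serotonin receptors, were at similar summed levels in both groups. The CA1 markers summed to 205 FPKM with vehicle and 223 FPKM with CORT over 6 transcripts of 5 of 7 genes, and none was past 1.5-fold. They include Dcn, at 18.8 and 20.0 FPKM, which is also counted among the meningeal markers. The dentate granule cell markers summed to 120 and 110 FPKM over 5 transcripts of 5 of 8 genes, again with none past 1.5-fold. The CA3 markers summed to 740 and 774 FPKM over 9 transcripts of 7 of 8 genes, with Nnat alone at 418 and 443 FPKM. Of the 9, only Coch was past 1.5-fold, at 9.18 FPKM with vehicle and at 4.48 FPKM with CORT. Of all transcripts, 9.12% were past 1.5-fold. Fibcd1 and Pou3f1 (CA1), Dsp, Lct and Tdo2 (dentate) and Iyd (CA3) have no row.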

How the data were processed

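RNAseq libraries were made from total RNA of whole hippocampi with a stranded kit. Per the labels' processing notes and the study's methods, the authors used CASAVA 1.8.2, TopHat2 2.0.10 and Cuffdiff 2.2.0 with the rn6 genome. The deposited FPKM values are per Ensembl transcript, with geometric normalization between libraries and corrections for multi-mapping reads, sequence bias and effective length, and the authors gave 1 value for each group of 4 rats. Transcripts with too few alignments had been removed by them. The deposited fold changes, test statistics, p-values and q-values are the authors' own comparison and were not used. Depth per library is not given in the table, so no interval or floor was computed.

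Samples were grouped by their treatment label. Log2 ratios of CORT over vehicle FPKM were computed without a pseudocount and counted against a threshold of 1.5-fold, with no test, since each group has 1 value. The ratio calculation was run on vehicle values into which known changes without noise had been put, which checks its arithmetic only. Low levels make ratios less stable and a pseudocount shrinks them. All rows of the 10 receptors are named. Of the other lists of related genes, the text names the transcripts past 1.5-fold with at least 1 FPKM in either group, up to 4 for each list, and the other serotonin receptors. Further genes named with values (markers, Nr3c1, Nr3c2, Gnas, Tph2 and S100a10) were picked from the lists after values were seen. The glucocorticoid targets were kept out of the 6 lists of the serotonin pathway. The receptors and all lists, of which 13 hold cell type markers, were chosen with earlier results of these data known. The G protein class of each receptor was assigned from general knowledge and not measured, and that of Htr5b is less well established. Python 3.11.15, numpy 2.4.6, pandas 2.3.3 and matplotlib 3.10.9 were used.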

Additional observations from a re-analysis of the deposited data

How the results depend on the processing

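The number of receptors past 1.5-fold was 1 with a pseudocount of 0.1 FPKM, after centring on the median, with at least 1 FPKM in both groups and with FPKM summed over a symbol. It was 2 with the threshold lowered to a difference of 25%, 0 with a threshold of 2-fold and 0 with a pseudocount of 1 FPKM, which took Htr2a to a log2 ratio of 0.45. The 7 transcripts of the serotonin pathway past 1.5-fold became 13 with the threshold at 25%, 3 at 2-fold, 3 with a pseudocount of 1 FPKM, 4 with at least 1 FPKM in both groups, 3 with FPKM summed over a symbol, and 14 with the glucocorticoid targets included, which was added after seeing the data. Without the most abundant receptor of its class, the log2 ratio of the sums was 0.66 for the Gq/11 class, where Htr2a alone is left, and -0.014 for the Gs class, where Htr6 alone is left. The median of the receptors moved by less than 0.1 on the log2 scale under each alternative run. Of the 8 single ratios, 2 (Htr2a and Htr4) moved by more than that with a pseudocount of 1 FPKM, and none changed direction.

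Leaving out each rat in turn was not run, because the table gives group values. No paired analysis was possible because single rats have no column of their own. The study's methods give only an approximate read total for a lane of several samples and a minimum alignment count, below which transcripts were removed. No depth of a single library is known, so no limit of detection is given for Htr1d and Htr7, which have no row.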

Other observations

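Markers of oligodendrocytes, microglia, endothelial cells and meninges were mostly lower in the CORT group, whereas those of astrocytes were mixed. Of all transcripts 55.0% were higher in the CORT group, and 4.91% were at least 1.5-fold lower. Oligodendrocyte markers summed to 7573 FPKM with vehicle and 6219 FPKM with CORT, and 12 of their 14 transcripts were lower, none by 1.5-fold. Microglia markers summed to 288 and 249 FPKM, with 9 of 10 transcripts lower, none by 1.5-fold. The exception was Tmem119, at 5.72 FPKM with vehicle and at 11.2 FPKM with CORT. Endothelial markers summed to 97.9 and 83.3 FPKM, with 7 of 8 transcripts lower and 2 of these by at least 1.5-fold. Meningeal markers summed to 127 FPKM with vehicle and 93.6 FPKM with CORT, with 8 of 9 transcripts lower, 3 of them by at least 1.5-fold. The exception, Dcn, is also counted among the CA1 markers. Astrocyte markers summed to 3342 and 2941 FPKM, with 9 of 17 transcripts lower and 8 higher, 2 and 3 of them by at least 1.5-fold. The 3 were low transcripts of Aqp4, Aldh1l1 and Aldoc. All transcripts of these genes together were at 171 and 131 FPKM, 7.32 and 7.07 FPKM, and 554 and 626 FPKM. With FPKM summed over a symbol, only Gfap, the intermediate filament of astrocytes, was past 1.5-fold. Gfap accounted for more than the whole difference, at 970 FPKM with vehicle and at 517 FPKM with CORT. The part of these cell types in the receptor values was not tested.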
